A study of Homo sapiens with 4 samples.

Results

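Histone genes were examined in HGC27 cells, an undifferentiated human gastric cancer line, after knockdown of AARS1, the alanyl-tRNA synthetase that charges tRNA with alanine and that the study describes as a lactyltransferase for lysines. All rows of the deposited table whose symbol starts with HIST1H to HIST4H, with H2AFJ, H2AFV, H2AFX, H2AFY or H2AFZ, with H3F3 or with H1F were taken, and the pseudogene H3F3AP4 was dropped from the 30 rows found. This left 29 histone genes of 14431 listed genes, namely 21 clustered genes and 8 variant genes, and all 29 passed the filter on low values. Pseudogenes were dropped by name only, so HIST2H2BD stayed among the clustered genes although GENCODE v29 calls it a transcribed pseudogene. HIST2H2BC, whose identifier has no match in that annotation, also stayed, and whether it is a coding gene was not checked. The 2 control libraries (labelled WT) and the 2 siAARS1 libraries (labelled AARS1 knockdown, made with a small interfering RNA) all came from cells grown in glucose-free DMEM with serum and 25 mM lactate. The labels give 24 h of lactate. A different duration is printed elsewhere for this experiment, so the time is uncertain. No library without lactate was compared here.

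Histones wrap DNA into nucleosomes built from H2A, H2B, H3 and H4, and the linker histone H1 binds the DNA between them. The clustered genes lie mostly on chromosomes 6 and 1, are switched on when DNA is replicated, and give short mRNAs that classically end in a stem-loop held by the protein SLBP in place of a poly(A) tail. The variant genes are expressed throughout the cell cycle, and most give polyadenylated mRNAs for histones such as H3.3, H2A.Z, macroH2A and H1.0. A library made from poly(A) RNA therefore captures mainly the variant mRNAs and those clustered transcripts that run on to a poly(A) site. The labels name total RNA and a standard Illumina protocol, and whether poly(A) RNA was selected is not given in the sources used here.

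Expression was given as CPM, the reads of a gene scaled to the size of its library. The libraries held between 30653210 and 33522573 reads in listed genes, and the 3 reads that a count of 0 allows equalled 0.0880 to 0.0971 CPM, a limit that covers counting error only. The lowest histone value, HIST1H2AE in siAARS1 replicate 1, rested on 15 reads. AARS1, listed as AARS, stood at 428 and 417 CPM in control against 292 and 298 CPM in siAARS1 (log2 fold change −0.52 ± 0.04 SE, limma adjusted p = 2.52e-11). The targeted mRNA was thus still at 69.8% of its control mean. Once the fold change expected from GC content and transcript length was taken out, AARS1 was at −0.28 (limma adjusted p = 5.29e-07). Of 5 epithelial markers 2 were listed, KRT8 and CDH1, and their sum was 27.0 to 27.3 CPM in control and 6.14 to 7.29 CPM in siAARS1, whereas the 3 fibroblast markers, of which COL1A1 and COL3A1 were the most abundant, summed to 5989 and 6170 CPM in control against 4278 and 4159 CPM in siAARS1. Of 4 leukocyte markers 2 were listed, and they summed to 3.92 to 5.31 CPM over the 4 libraries. None of the 3 endothelial markers was listed. Replicates are the numbered libraries of a group, and since nothing states that they were separate cultures, the p-values measure the spread between these libraries, which may be technical.

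The 3′ stem-loop was looked for in the transcripts of GENCODE v29 (GRCh38), an annotation that may not be the one the authors used, since some identifiers of the table are absent from it. A sequence was found for 19 clustered genes and all 8 variant genes. The 16 letters of the histone stem-loop, on the sense strand, were in 15 of the 19 clustered genes and in 1 of the 8 variant genes, H2AFX, against 0.261% of the 14183 listed genes with a transcript. The 4 clustered genes without it, HIST1H1C, HIST1H2AM, HIST1H2BK and HIST1H3D, have only transcripts of 381 to 642 bases in this annotation, so the absence says only that these letters are not in those models. Representative stem-loops follow because most clustered genes but only 1 variant gene carried one. The 16 letters are in capitals, with 5 flanking bases on each side.
HIST3H2A: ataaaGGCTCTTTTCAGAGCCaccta
HIST2H2AA4: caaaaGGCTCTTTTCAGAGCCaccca
HIST1H2BD: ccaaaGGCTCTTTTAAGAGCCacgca
HIST1H4J: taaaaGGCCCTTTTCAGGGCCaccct
HIST2H4A: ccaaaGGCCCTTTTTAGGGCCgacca
H2AFX: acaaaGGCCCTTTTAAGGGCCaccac

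These lie at chr1:228457369-228457384 (HIST3H2A, minus strand), chr1:149842223-149842238 (HIST2H2AA4, minus strand), chr6:26158587-26158602 (HIST1H2BD, plus strand), chr6:27824459-27824474 (HIST1H4J, plus strand), chr1:149833032-149833047 (HIST2H4A, plus strand) and chr11:119094898-119094913 (H2AFX, minus strand), all near the 3′ end of the gene or upstream of a longer annotated end. The position given for HIST2H2AA4 is at the locus that RefSeq calls HIST2H2AA3. The form carried by HIST3H2A and HIST2H2AA4 was shared by 7 of the 16 genes with a stem-loop. All 4 H4 genes and H2AFX opened their stem with GGCCC, and the other 11 genes, of the H2A, H2B and H3 families, opened it with GGCTC. In 11 of the 15 clustered genes with a stem-loop, at least 1 annotated transcript ran 100 bases or more past it, and 12 of the 19 clustered genes and 4 of the 8 variant genes had an AATAAA, the usual poly(A) signal, within the last 50 bases of a transcript.

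The question asked of both classes was whether histone mRNAs differed between siAARS1 and control. Among the clustered genes 5 of 21 fell (HIST2H2AA4, HIST3H2A, HIST1H1C, HIST1H2BD and HIST1H2BK), 1 rose (HIST2H2BC) and 15 did not pass the test. Among the variant genes 5 of 8 fell (H1FX, H1F0, H2AFX, H3F3A and H3F3B), 0 rose and 3 did not pass. The test was limma on log2(CPM + 1) with Benjamini-Hochberg adjustment over 14199 genes and a threshold of 0.05, and by the same rule 38.0% of all genes were lower and 32.6% higher. Of the clustered genes 23.8% were thus lower and 4.76% higher, and of the variant genes 62.5% were lower. No variant gene was higher by edgeR or DESeq2 either (0 and 0), or at an unadjusted limma p under 0.05 (0). Those called lower numbered 5 clustered and 4 variant genes by edgeR and 3 clustered and 3 variant genes by DESeq2. Of all 14199 genes edgeR called 4874 lower and DESeq2 3856. Without control replicate 2 the variant genes called lower numbered 2, and without siAARS1 replicate 2 they numbered 3 and no clustered gene was higher. On the log2(CPM + 1) scale, which understates changes of low genes, none of the 29 genes was both called and changed by 2-fold, against 12.3% of all genes, although the CPM mean of HIST2H2AA4 in siAARS1 was 48.9% of that in control. The groups did not overlap for 9 of the 21 clustered and 7 of the 8 variant genes, against 85.1% of all genes.

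The median log2 fold change was −0.20 over the clustered genes and −0.11 over the variant genes, beside −0.05 over all genes tested. Of the 29 fitted values 24 were below 0, against 7789 of 14199 over all genes. Clustered genes ranged from −0.90 to 0.58 and variant genes from −0.72 to 0.03. The SE of a fold change was 0.05 to 0.22 among the clustered genes and 0.04 to 0.06 among the variant genes, and 15 of the 21 clustered genes averaged below 5 CPM, so that a change of a size called in a variant gene was often not detectable in a clustered one. When libraries were scaled to their median gene, the median of all genes moved to −0.26, and the medians of the clustered and variant genes to −0.34 and −0.34. Under that scaling 11 of the 21 clustered genes and 8 variant genes were lower, beside 7999 of all 14199 genes. The added genes were HIST1H2AC, HIST1H2BC, HIST1H2BN, HIST1H3D, HIST2H2BE, HIST2H4B, H2AFV, H2AFY and H2AFZ. The share of rises among all calls went from 46.2% to 29.7%.

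**Figure D1:**
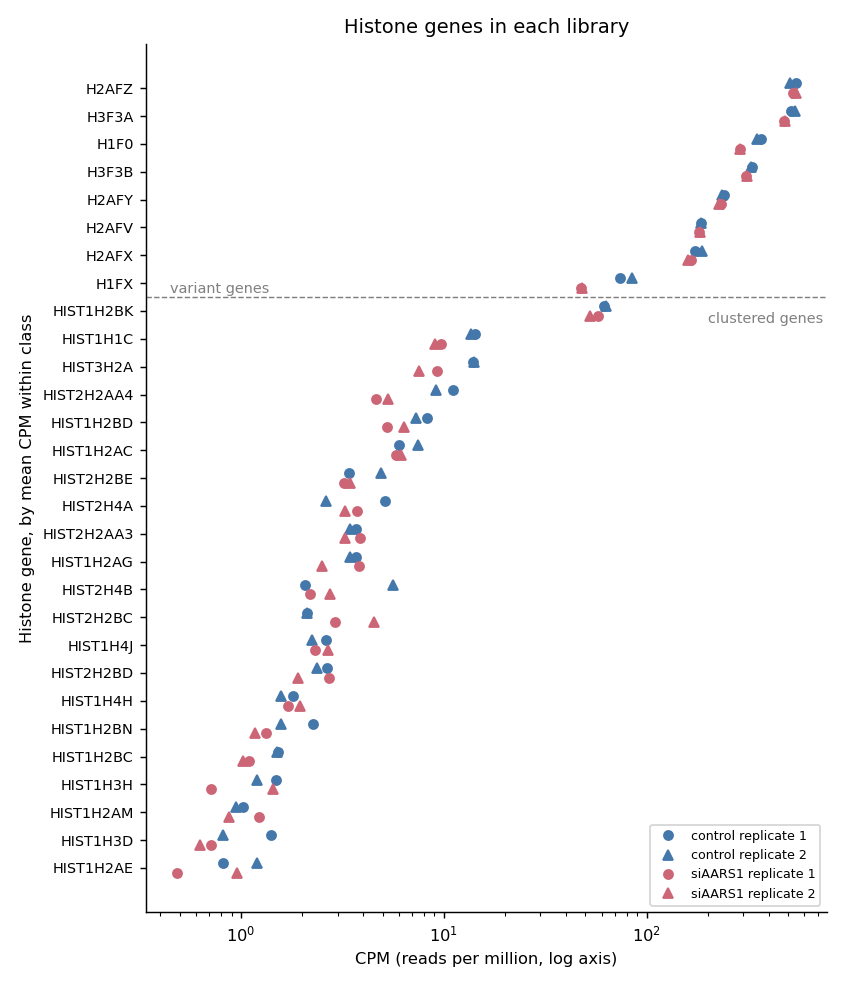
CPM of each of the 29 histone genes (vertical axis, by mean within class) in each of the 4 libraries, on a log axis. The 8 variant genes lie between 47.3 and 545 CPM, and every clustered gene but HIST1H2BK lies below 15 CPM.

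The GC content of a transcript moved with the fold change across the whole table and is given here because it touches each result that follows. With genes cut into 5 bins of equal size, transcripts of 27.9% to 41.4% GC had a median log2 fold change of 0.77, and those of 58.9% to 75.2% GC had −0.30. The clustered and variant histone genes had median GC contents of 51.0% and 49.9%, and 49.2% was the median of all genes. Their median lengths were 789 and 2103.5 bases, against 3273 bases over all genes. When the fold change expected from GC content and length was taken out, 6 of 19 clustered genes were lower and 0 higher. Of the 8 variant genes 4 were lower and 3 higher, and the medians were −0.20 in both classes. Over all 13969 genes with this correction 4526 were lower and 4662 higher, with a median of 0.005. What part GC content has in the unadjusted values was not tested further.

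**Figure D2:**
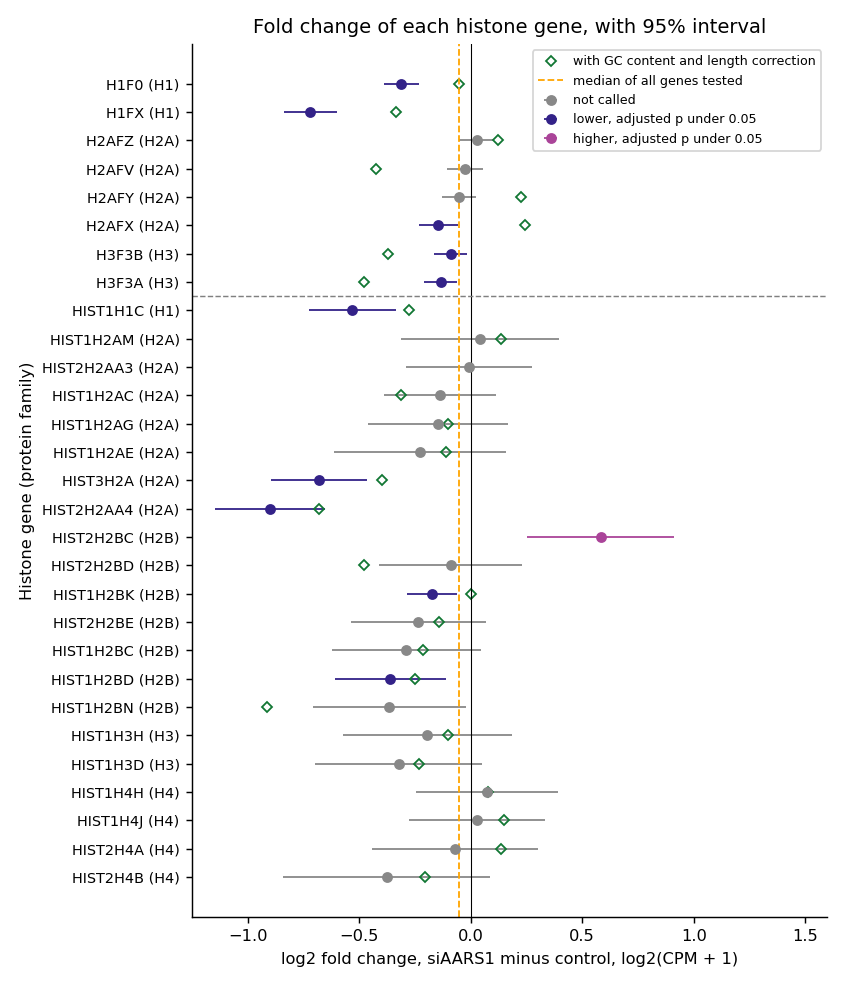
Log2 fold change of each histone gene, siAARS1 minus control, on the log2(CPM + 1) scale, with its 95% interval from limma (filled points) and the value after correction for GC content and length (open diamonds, 27 genes). HIST2H2AA4, H1FX, HIST3H2A and HIST1H1C lie lowest, HIST2H2BC highest, and the intervals of the clustered genes are wider.

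All 3 linker histone genes fell under every scaling tried, although the call of H1F0 was lost with GC and length corrected for. By limma 38.0% of all genes were lower. Linker histones bind nucleosomes where DNA enters and leaves, and H1.0, the product of H1F0, is known to build up in non-dividing cells. HIST1H1C (H1.2, the clustered member, chr6:26055787-26056428) had 14.2 and 13.7 CPM in control against 9.65 and 9.05 CPM in siAARS1. Both siAARS1 libraries were below both controls, at 67.0% of the control mean (log2 fold change −0.53 ± 0.09 SE, adjusted p = 3.62e-05). H1FX (H1.10, chr3:129314771-129316277) had 73.9 and 84.5 CPM in control against 47.3 and 47.9 CPM. Its groups were again apart, with siAARS1 at 60.1% of control (−0.72 ± 0.06 SE, adjusted p = 3.09e-10). H1F0 (H1.0, chr22:37805093-37807436) had 368 and 350.3 CPM in control against 287 and 291 CPM in siAARS1. This was the smallest of the 3 falls, to 80.5% of control (−0.31 ± 0.04 SE, adjusted p = 1.70e-07).

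The linker genes also had high GC contents, 57.5% for HIST1H1C, 68.6% for H1FX and 53.2% for H1F0. Of all genes with 52.5% to 58.9% GC 60.9% were called lower, and of those with 58.9% to 75.2% GC 67.4%. With GC and length corrected for, HIST1H1C was at −0.28 (adjusted p = 0.00969) and H1FX at −0.34 (adjusted p = 1.87e-05), whereas H1F0 was at −0.05 and no longer called (adjusted p = 0.123). H1FX overlaps the antisense gene H1FX-AS1, and without a known strand setting their reads cannot be told apart. Promoters of linker genes are shown because these genes were all called lower by limma before the correction. The 250 bases before the start of RefSeq genes (GRCh38.p14, first listed start of each gene) were searched on both strands for the TATA box (TATAAA), the CCAAT box, the octamer (ATTTGCAT) and the H1 box of linker genes (AAACACA), and each match is in capitals. Matches of the TATA and H1 boxes could share bases, and none did in the windows printed. H1F0 had no entry.
HIST1H1C: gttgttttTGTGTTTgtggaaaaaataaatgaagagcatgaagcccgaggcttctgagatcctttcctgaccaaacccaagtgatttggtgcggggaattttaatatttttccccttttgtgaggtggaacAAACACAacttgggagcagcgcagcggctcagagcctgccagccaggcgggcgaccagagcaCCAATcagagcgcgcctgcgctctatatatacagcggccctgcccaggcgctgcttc
H1FX: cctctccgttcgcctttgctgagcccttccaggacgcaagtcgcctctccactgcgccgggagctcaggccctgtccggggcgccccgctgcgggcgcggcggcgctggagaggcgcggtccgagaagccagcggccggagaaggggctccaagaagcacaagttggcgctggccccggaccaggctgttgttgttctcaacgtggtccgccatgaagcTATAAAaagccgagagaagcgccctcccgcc

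The HIST1H1C window is chr6:26056471-26056720 and the H1FX window chr3:129316287-129316536, both on the minus strand. HIST1H1C carried the H1 box, which 4.95% of 27305 promoters hold, and a CCAAT box, held by 33.0%. H1FX carried neither and had a TATAAA, held by 11.1%. These windows shared none of the 4 motifs. Over the 25 histone promoters matched, CCAAT was in 14 of 18 clustered and 5 of 7 variant genes, TATAAA in 11 and 4, the octamer (1.66% of all promoters) in 7 and 1, and the H1 box in 1 and 0.

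Of the 7 clustered H2A genes 2 fell and 5 did not pass the test, so that 28.6% were lower against 38.0% of all genes. H2A forms the outer face of the nucleosome with H2B. HIST3H2A (chr1:228456979-228457873, minus strand) had 13.9 and 14.1 CPM in control against 9.23 and 7.52 CPM in siAARS1. It was lower in both siAARS1 libraries, at 59.9% of control (−0.68 ± 0.10 SE, adjusted p = 5.20e-06), and stayed called once GC and length were corrected for (−0.40, adjusted p = 0.00215). HIST2H2AA4 had 11.1 and 9.20 CPM in control against 4.63 and 5.32 CPM in siAARS1. This was the largest fall of any histone gene, to 48.9% of control (−0.90 ± 0.12 SE, adjusted p = 7.78e-07; corrected −0.68, adjusted p = 5.19e-05). The other 5 genes did not pass. HIST1H2AC had 6.04 and 7.44 CPM in control against 5.80 and 6.20 CPM in siAARS1 (−0.14, adjusted p = 0.304), and HIST1H2AG had 3.70 and 3.44 CPM against 3.82 and 2.53 CPM (−0.15, adjusted p = 0.395). In both genes the groups overlapped, and HIST1H2AC was lower after the correction (−0.31, adjusted p = 0.0254), which used a model of 1654 bases and 42.0% GC. HIST1H2AE and HIST1H2AM were at 0.486 to 1.23 CPM, with values of −0.23 and 0.04.

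HIST2H2AA4 has a duplicate, HIST2H2AA3, and the listed values of these copies have to be read together. HIST2H2AA3 had 3.70 and 3.47 CPM in control against 3.89 and 3.25 CPM in siAARS1 (−0.01, adjusted p = 0.965), with overlapping groups, beside the fall of its copy. Every 50-base window of the HIST2H2AA4 transcript also occurs in another gene of the annotation, and the identifier listed as HIST2H2AA4 is placed at chr1:149842188-149842736, the locus that RefSeq calls HIST2H2AA3. Which locus each value belongs to is therefore uncertain, as is how reads were shared between them. Their RefSeq promoters had 0 mismatches over 249 bases when offset by 1 base, and a single window is shown because it is the same window for both copies.
HIST2H2AA4: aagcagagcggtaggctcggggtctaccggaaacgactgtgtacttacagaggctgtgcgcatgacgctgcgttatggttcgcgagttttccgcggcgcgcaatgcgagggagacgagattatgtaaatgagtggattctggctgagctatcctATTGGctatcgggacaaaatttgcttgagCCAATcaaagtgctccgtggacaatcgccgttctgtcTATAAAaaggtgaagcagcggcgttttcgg

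This window, chr1:149850811-149851060 on the plus strand, held a TATAAA and a CCAAT box on each strand. It belongs to the locus that RefSeq calls HIST2H2AA4, not to the locus of the stem-loop printed above under that name. Summed over the copies, the values were 14.8 and 12.7 CPM in control against 8.52 and 8.57 CPM in siAARS1. The sum was lower in both siAARS1 libraries, at 62.1% of control (−0.62 on the log2 scale, adjusted p = 1.07e-05 when the copies were merged before the fit). The H4 duplicates showed the same difficulty between replicates. HIST2H4A had 5.16 and 2.62 CPM in control against 3.76 and 3.25 CPM in siAARS1, and HIST2H4B had 2.08 and 5.61 CPM in control against 2.20 and 2.77 CPM in siAARS1. Control replicate 1 was high for HIST2H4A and low for HIST2H4B, and control replicate 2 the reverse, and 97.5% and 97.2% of their windows are shared. Neither was called (adjusted p = 0.738 and 0.133), but without control replicate 1 HIST2H4B was lower (−0.93, adjusted p = 3.84e-07) and without control replicate 2 HIST2H4A was (−0.46, adjusted p = 0.0119). Their sum, 7.24 and 8.23 CPM in control against 5.96 and 6.02 CPM in siAARS1, stood at 77.4% of control (−0.32, adjusted p = 0.0160 when merged).

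**Figure D3:**
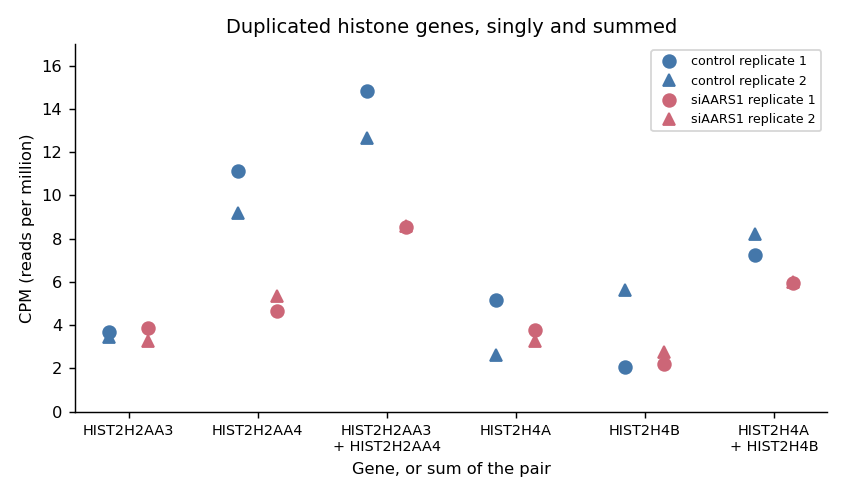
CPM of the duplicated genes HIST2H2AA3 and HIST2H2AA4, and HIST2H4A and HIST2H4B, in each library, singly and summed. The single H4 genes overlap between groups and their control replicates swap places, while both sums are lower in siAARS1, 8.52 to 8.57 against 12.7 to 14.8 CPM and 5.96 to 6.02 against 7.24 to 8.23 CPM.

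The variant H2A genes changed little on the CPM scale. H2A.Z replaces H2A at promoters and is encoded by H2AFZ and H2AFV, H2A.X is phosphorylated around DNA breaks, and macroH2A, encoded by H2AFY, is linked with silent chromatin. H2AFZ, the most abundant histone gene per length, had 545 and 509 CPM in control against 528 and 544 CPM in siAARS1. Its groups overlapped (0.03 ± 0.04 SE, 95% interval −0.05 to 0.10, adjusted p = 0.557), and the value was −0.20 under median scaling and −0.02 without control replicate 2. H2AFV had 187 and 185 CPM in control against 182 and 184 CPM in siAARS1 (−0.03 ± 0.04 SE, adjusted p = 0.554), and edgeR and DESeq2 gave 0.01 and 0.03. H2AFY had 242 and 234 CPM in control against 232 and 228 CPM in siAARS1 (−0.05 ± 0.04 SE, adjusted p = 0.212). For H2AFV and H2AFY the groups did not overlap, with differences of 1.79% and 3.63% of the control mean.

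H2AFX, the variant gene with a stem-loop, had 174 and 187 CPM in control against 166 and 159.9 CPM in siAARS1. It was lower in both siAARS1 libraries, at 90.3% of control (−0.15 ± 0.04 SE, adjusted p = 0.00452). The call was lost without control replicate 2 (−0.09, adjusted p = 0.134), without siAARS1 replicate 2 (−0.12, adjusted p = 0.0595) and by DESeq2 (−0.09, adjusted p = 0.109). With a GC content of 66.4%, H2AFX turned to 0.24 once GC and length were corrected for (adjusted p = 1.22e-05), and H2AFY turned to 0.23 (adjusted p = 6.73e-06). H2AFZ was then at 0.12 (adjusted p = 9.78e-04) and H2AFV at −0.43 (adjusted p = 1.16e-08), so the corrected H2A variants went in opposite directions.

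H2B genes were found only among the clustered ones, and of the 7, 2 fell and 1 rose. Thus 28.6% were lower and 14.3% higher, against 38.0% and 32.6% of all genes. HIST1H2BK, by far the most abundant clustered gene with 41.4% of the clustered CPM in control, had 61.5 and 63.4 CPM in control against 57.9 and 52.6 CPM in siAARS1. It fell to 88.5% of control (−0.17 ± 0.05 SE, adjusted p = 0.00721), but not without control replicate 2 (−0.15, adjusted p = 0.0551), without siAARS1 replicate 2 (−0.11, adjusted p = 0.115), by DESeq2 (−0.12, adjusted p = 0.145) or once GC and length were corrected for (−6.0e-04, adjusted p = 0.994). Its model, of 381 bases and 61% GC, shares 74.1% of its windows with other genes, chiefly H2BFS. HIST1H2BD had 8.27 and 7.28 CPM in control against 5.28 and 6.41 CPM in siAARS1. It was at 75.1% of control (−0.36 ± 0.12 SE, adjusted p = 0.0106), and was not called without control replicate 1 (−0.28, adjusted p = 0.0906), without siAARS1 replicate 1 (−0.24, adjusted p = 0.141), by DESeq2 (−0.36, adjusted p = 0.115) or after the correction (−0.25, adjusted p = 0.0625).

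HIST2H2BC was the only clustered gene that rose, from 2.11 and 2.11 CPM in control to 2.91 and 4.54 CPM in siAARS1. Both siAARS1 libraries were above both controls (0.58 ± 0.16 SE, adjusted p = 0.00272), on 67 to 72 reads in control and 90 and 151 reads in siAARS1, and without siAARS1 replicate 2 the rise was 0.33 and not called (adjusted p = 0.113). Its listed identifier had no match in the annotation, so whether it is a coding gene was not checked. A gene of that name in the annotation overlaps HIST2H2BD on the opposite strand. HIST2H2BD, which the annotation calls a transcribed pseudogene, had 2.67 and 2.36 CPM in control against 2.72 and 1.93 CPM in siAARS1 (−0.09, adjusted p = 0.610). Reads of these overlapping genes cannot be told apart without a known strand setting. HIST2H2BE had 3.43 and 4.92 CPM in control against 3.24 and 3.46 CPM in siAARS1, with overlapping groups (−0.24, adjusted p = 0.152), and passed the test without control replicate 1 (−0.44, adjusted p = 0.0153). HIST1H2BN just missed the threshold, with 2.26 and 1.58 CPM in control against 1.33 and 1.17 CPM in siAARS1 (−0.37, adjusted p = 0.0527), and passed it without control replicate 2 (−0.53, adjusted p = 0.0136). Once GC and length were corrected for, HIST1H2BN was at −0.91 (adjusted p = 1.63e-04) and HIST2H2BD at −0.48 (adjusted p = 0.0137), both then called lower. The correction used their longest annotated transcripts, of 4137 bases and 39.5% GC and of 3612 bases and 41.8% GC. Whether these are the transcripts that were read is not known, so the corrected values are uncertain. HIST1H2BC was at 1.53 and 1.51 CPM in control against 1.10 and 1.02 CPM in siAARS1 (−0.29, adjusted p = 0.111). For HIST1H2BN and HIST1H2BC the siAARS1 libraries were below both controls.

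The genes for H3.3, the H3 variant laid down outside replication, fell slightly. H3F3A had 516 and 538 CPM in control against 479 and 481 CPM in siAARS1, and H3F3B had 332 and 329 CPM in control against 309.8 and 311 CPM in siAARS1. In both genes the groups were apart, at 91.0% and 94.0% of control (−0.14 ± 0.04 SE, adjusted p = 0.00184, and −0.09 ± 0.04 SE, adjusted p = 0.0290). The calls were near the limit of what 2 libraries a group can show. That of H3F3A was lost without control replicate 2 (−0.11, adjusted p = 0.0507), and that of H3F3B without any 1 of the 4 libraries (−0.08 to −0.10, adjusted p = 0.0516 to 0.157). The call of H3F3B was also lost by edgeR (−0.05, adjusted p = 0.224), by DESeq2 (−0.04, adjusted p = 0.423) and under quantile normalization (−0.07, adjusted p = 0.0675). Both genes have a low GC content, 40.5% and 43.1%, and after the correction they were at −0.48 (adjusted p = 1.04e-09) and −0.37 (adjusted p = 2.43e-08). Reads of H3F3A can also stem from its processed copies, which share 11.7% of its windows.

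The replication-dependent H3 genes were rare in these libraries. HIST1H3D was at 1.41 and 0.819 CPM in control against 0.712 and 0.632 CPM in siAARS1 (−0.32, adjusted p = 0.112; −0.53 and adjusted p = 0.0247 without control replicate 2), and HIST1H3H was at 1.50 and 1.20 CPM in control against 0.712 and 1.44 CPM in siAARS1 (−0.20, adjusted p = 0.344). The groups were apart for HIST1H3D and overlapped for HIST1H3H. Of the H4 genes outside the duplicated pair, HIST1H4H had 1.82 and 1.58 CPM in control against 1.72 and 1.96 CPM in siAARS1 (0.07, adjusted p = 0.687). HIST1H4J had 2.64 and 2.24 CPM in control against 2.33 and 2.68 CPM in siAARS1 (0.03, adjusted p = 0.874). Their groups overlapped. Of the 4 H4 genes 0 passed by limma, 0 at an unadjusted p under 0.05, and 0 by edgeR or DESeq2. Of all 14199 genes limma called 10032. The positive fitted values of HIST1H4H, HIST1H4J, HIST1H2AM and H2AFZ, unlike that of HIST2H2BC, became negative under median scaling.

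Sums over genes do not depend on how reads were split between copies within the sum, though they do on reads shared with genes outside it, such as those of HIST1H2BK with H2BFS. The 21 clustered genes summed to 151 and 151 CPM in control against 125 and 119.6 CPM in siAARS1, and the 8 variant genes to 2437 and 2418 CPM in control against 2231 and 2246 CPM in siAARS1. In both classes the siAARS1 libraries were below both controls, at 81.0% of the control mean for the clustered sum and 92.2% for the variant sum. The sums are given as a description, with no test of their own. Without HIST1H2BK the clustered sum was 89.4 and 87.3 CPM in control against 66.7 and 67.0 CPM in siAARS1, 75.7% of control. In bulk RNA, a lower sum from fewer replicating cells and from less histone mRNA in each cell cannot be told apart.

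Between families the sums differed in size. The linker sum was 456 and 449 CPM in control against 344 and 347 CPM in siAARS1, 76.5% of control, most of it from H1F0. The clustered H2A sum was 40.3 and 39.7 CPM against 29.1 and 26.7 CPM, 69.6% of control. The variant H2A sum was 1148 and 1116 CPM against 1108 and 1115 CPM, 98.2% of control, with groups only just apart. Clustered H2B stood at 88.3%, clustered H4 at 87.0% and variant H3 at 92.1% of control, all with groups apart, while the clustered H3 sum was 2.90 and 2.02 CPM against 1.42 and 2.08 CPM and overlapped.

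**Figure D4:**
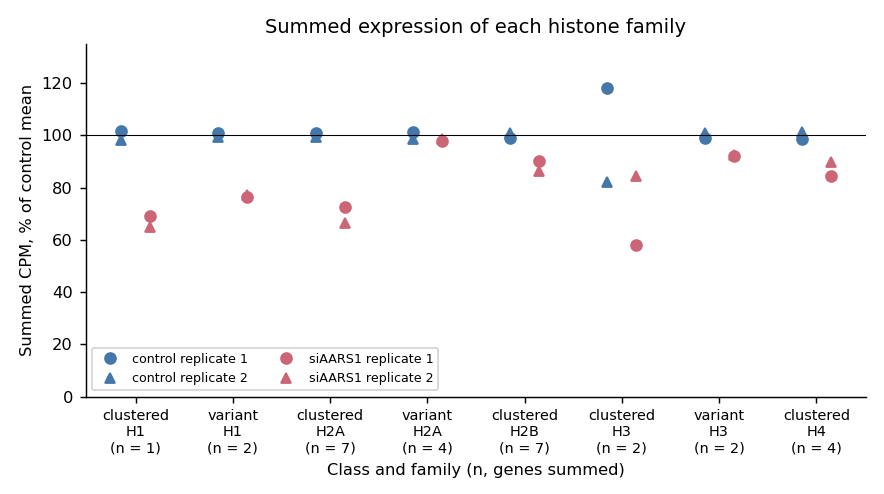
Summed CPM of each histone family and class in each library as a percentage of the control mean (line at 100%). The clustered H1, clustered H2A and clustered H3 sums lie lowest in siAARS1, at 67.0%, 69.6% and 71.1% of control on average, with overlapping libraries for clustered H3, and the variant H2A sum lies at 98.2%.

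Levels of different genes were compared per kilobase of the longest coding transcript in the annotation. In control, the variant genes ran from 48.9 (H2AFV) to 538 (H2AFZ) CPM per kb, with a median of 117 CPM per kb. The clustered genes with a length ran from 0.463 (HIST1H2BN) to 164 (HIST1H2BK) CPM per kb, with a median of 2.71 CPM per kb. HIST1H2BK was thus the only clustered gene within the range of the variant genes, and its short model raises its level per kb. Summed per kb over 19 clustered genes, the level was 267 ± 2.14 in control and 218 ± 9.43 in siAARS1 (SD, n = 2), and over 8 variant genes 1395 ± 14.8 and 1306 ± 10.7.

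Genes that make and degrade clustered histone mRNA moved in both directions. Of a list of 22 such genes 13 rose, 5 fell and 4 did not pass, so that 59.1% were higher and 22.7% lower against 32.6% and 38.0% of all genes. Their median log2 fold change was 0.21 beside −0.05 over all genes. Without control replicate 2, and without siAARS1 replicate 2, 3 genes fell in place of 5, and under median scaling 8 rose and 8 fell. Of all 14199 genes, median scaling called 3379 higher and 7999 lower. NPAT, the coactivator that switches on histone genes in S phase, had 2.35 and 2.93 CPM in control against 22.9 and 22.7 CPM in siAARS1. This was an 8.63-fold difference of means with groups far apart (2.71 ± 0.11 SE, adjusted p = 2.44e-15). CASP8AP2, or FLASH, which joins the U7 snRNP in cutting the 3′ end, had 2.29 and 2.74 CPM in control against 14.5 and 16.8 CPM in siAARS1 (2.25 ± 0.12 SE, adjusted p = 2.65e-13). ZCCHC11 (TUT4), a terminal uridylyltransferase implicated in tailing RNA for decay, had 14.7 and 14.6 CPM in control against 55.2 and 62.2 CPM in siAARS1 (1.93 ± 0.07 SE, adjusted p = 2.67e-16). All 3 genes were higher in both siAARS1 libraries.

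SLBP, which binds the stem-loop shown above, had 116 and 124 CPM in control against 125 and 127 CPM in siAARS1. Its groups were apart by a small margin and it was not called (0.07 ± 0.04 SE, adjusted p = 0.187). The call depended on the scaling, with −0.16 (adjusted p = 0.00200) under median scaling, 0.10 (adjusted p = 0.0436) by edgeR and 0.28 (adjusted p = 1.08e-05) once GC and length were corrected for. NPAT, CASP8AP2 and ZCCHC11 have low GC contents, 37.4%, 38.3% and 40.3%, and after that correction they were at 1.48, 1.11 and 0.93, all still called. The largest fall of the list was that of MIF4GD, a partner of SLBP in translation, from 22.4 and 23.2 to 12.6 and 10.7 CPM (−0.92, adjusted p = 7.11e-09), named here after its value was seen.

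Histone chaperones carry histones to and from DNA. Of 31 genes 15 rose, 5 fell and 11 did not pass, so that 48.4% were higher and 16.1% lower against 32.6% and 38.0% of all genes. Their median was 0.08 beside −0.05 over all genes. ATRX, which deposits H3.3 in heterochromatin, had 9.03 and 9.14 CPM in control against 60.9 and 67.5 CPM in siAARS1 (2.69 ± 0.07 SE, adjusted p = 2.44e-18; 1.14 after the correction). MMS22L, the partner of TONSL at replication forks, had 16.1 and 17.3 CPM in control against 61.8 and 68.3 CPM in siAARS1 (1.90 ± 0.07 SE, adjusted p = 2.03e-16; 0.49 after the correction). UBN2, a subunit of the HIRA complex that deposits H3.3, had 9.27 and 8.23 CPM in control against 29.01 and 34.1 CPM in siAARS1 (1.74 ± 0.09 SE, adjusted p = 2.11e-13; 0.40 after the correction). In all 3 the siAARS1 libraries were above both controls, and their GC contents were 36.9%, 38.0% and 40.0%. Under median scaling 17 chaperone genes were lower in place of 5, and 7999 of all 14199 genes were lower in place of 5399.

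Genes of S phase, in which clustered histone genes are transcribed, moved mostly upwards where they passed the test. Of 30 S phase genes 15 rose, 3 fell (CCNE1, TK1 and CDT1) and 12 did not pass, so that 50% were higher and 10.0% lower against 32.6% and 38.0% of all genes, with a median of 0.12. Under median scaling 6 were higher and 15 lower, against 3379 and 7999 of all 14199 genes. Once GC and length were corrected for, 25 were higher and 1 lower, against 4662 and 4526 of 13969 genes. The counts of this list in each direction thus depend on the processing, as those of all genes do. POLA1, a subunit of the polymerase that primes replication, had 9.03 and 10.3 CPM in control against 40.9 and 41.2 CPM in siAARS1 (1.98 ± 0.08 SE, adjusted p = 1.80e-15). CCNE2, cyclin E2, had 6.25 and 7.12 CPM against 20.7 and 24.2 CPM (1.61 ± 0.10 SE, adjusted p = 4.21e-12). RRM1, the large subunit of ribonucleotide reductase, had 132 and 138 CPM against 213 and 215 CPM (0.66 ± 0.04 SE, adjusted p = 2.93e-12). These 3, named because they had the largest called changes of the list, were higher in both siAARS1 libraries. They stayed higher after the correction (1.40, 0.70 and 0.32). Of the clustered histone genes 23.8% were lower and 4.76% higher, against 38.0% and 32.6% of all genes.

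**Figure D5:**
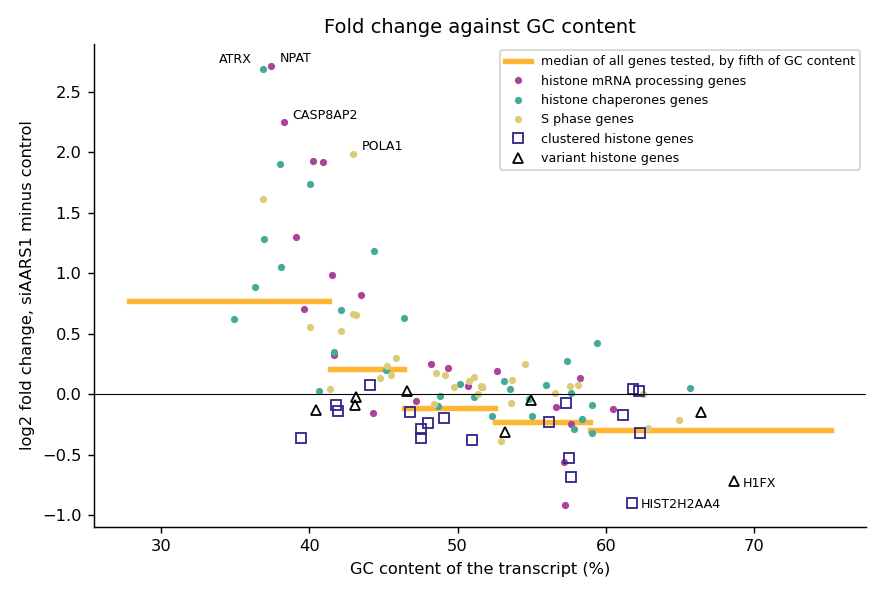
Log2 fold change (siAARS1 minus control, log2(CPM + 1) scale) against the GC content of the transcript for 27 histone genes and the genes of the 3 lists, with the median of all genes in each of 5 bins of GC content (bars, from 0.77 to −0.30). NPAT, CASP8AP2, ATRX and POLA1 lie above the bar of their bin, and H1FX and HIST2H2AA4 below theirs.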

How the data were processed

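The authors deposited 1 table of CPM values, and the labels' processing notes name RSEM 1.3.3 and hg38. The annotation, strand setting and library selection are not given in the sources used here. Dividing each deposited CPM by the step between values gave whole reads for 100% of them (tolerance at most 0.0670 reads), which gave the reads used by edgeR and DESeq2. Groups and replicate numbers came from the sample titles. Genes whose mean reached 1 CPM in either group were tested by limma 3.58.1 (eBayes with trend, R 4.3.3) on log2(CPM + 1), a scale that understates changes of low genes. No column of fold changes or p-values was used. The histone genes and the lists were chosen with earlier results of these data known. Individually named were AARS1, all variant genes, the 10 most abundant clustered genes and up to 5 called rises and falls, SLBP, NPAT, CASP8AP2 and the 3 largest called changes of each list, and the other clustered genes are given by their values. The correction fitted fold change on the GC content and length of each gene's longest annotated transcript, coding where possible (mgcv 1.9.3), for the 13969 genes with a sequence. For short histone mRNAs this model can differ from the transcript that was read. Of the 29 genes 22 were matched to GENCODE v29 by identifier, 5 by symbol, and HIST2H2AA3 and HIST2H2BC were not matched. The scripts were tested on simulated data. The alternatives were another pseudocount, filter, scaling, threshold and tool, a replicate block, and each library left out.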

Additional observations from a re-analysis of the deposited data

How the results depend on the processing

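With the libraries scaled to their median gene, 11 clustered and 8 variant genes were lower (medians −0.34 and −0.34), the clustered and variant sums stood at 0.691 and 0.787 of control, and the lists gave 8 higher and 8 lower for mRNA processing, 17 lower for chaperones, and 6 higher and 15 lower for S phase. Of all 14199 genes 3379 were then higher and 7999 lower. With this scaling SLBP was at −0.16 and H2AFZ at −0.20. Quantile normalization gave medians of −0.26 and −0.088, with 9 chaperone and 5 S phase genes lower, beside 6776 of all 14199 genes. A pseudocount of 0.1 gave a clustered median of −0.29. TMM scaling gave sums of 0.831 and 0.946, and edgeR gave medians of −0.27 and −0.075, 3 processing genes lower, H2AFV at 0.012 and HIST2H2AA3 at 0.029. By DESeq2 3 clustered, 3 variant and 3 processing genes were lower, with medians of −0.26 and −0.061, H2AFV at 0.026 and HIST2H2AA3 at 0.045. Once GC and length were corrected for, 0 clustered and 3 variant genes were higher, the variant median was −0.20, 25 S phase genes were higher and 1 lower, and H2AFX, H2AFY and HIST2H4A were at 0.24, 0.23 and 0.14. Of all 13969 genes so corrected, 4662 were higher and 4526 lower. The cause of these shifts was not tested.

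With each library left out in turn, clustered genes higher numbered 0 to 1, variant genes lower 2 to 4 and processing genes lower 3 to 5, and the clustered and variant medians ran from −0.26 to −0.15 and from −0.12 to −0.10. HIST2H4A ranged from −0.46 to 0.31, HIST2H2AA3 from −0.11 to 0.093, HIST1H2AG from −0.37 to 0.079 and H2AFZ from −0.023 to 0.074, each changing sign. The lone library of an arm was assumed to vary like the other group. Added after seeing the data, leaving out HIST1H2BK put the clustered sum at 0.757 of control, and merging the duplicated copies or asking for groups that do not overlap left each count within 1.5 times, with 6 clustered genes lower after merging.

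Replicate numbers pair no stated culture or day. The difference between the replicates of a group, taken gene by gene in number order, correlated at 0.118 between control and siAARS1. This value describes the replicate differences, not the libraries themselves. A fit with the replicate number as a block called 7 clustered genes lower in place of 5, adding HIST1H2BN (adjusted p = 0.0380) and HIST2H4B (adjusted p = 0.0153), and 16 S phase genes higher in place of 15. Over all genes it called 10389 in place of 10032, and the other counts of histone and listed genes were the same.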
